A study of Mus musculus with 6 samples.

Results

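Gasdermins, caspases and the RIP kinase-MLKL module form the machinery of lytic and apoptotic cell death, and 9 of their genes were followed across 6 RNA-sequencing libraries of mouse gastrocnemius, the large calf muscle. The members are Gsdma, Gsdmd, Ripk1, Ripk3, Mlkl, Casp1, Casp4, Casp8 and Casp12, taken by matching their symbols to the Ensembl gene identifiers of the count tables. All 9 were found among 49315 genes. They were selected on the mKO against WT difference in these same counts, so their values and calls are given as a description and not as a test. One set of libraries came from mice labelled mKO (n = 3), in which Hnrnpu, the gene of a nuclear RNA-binding protein, was knocked out in muscle only, and the other from mice labelled WT (n = 3). Every mouse was 3 months old and of mixed C57BL/6 and 129 descent. The sources used here do not give the promoter that drove the deletion, the deleted exons or any pooling of animals. Nothing says that the replicates came from separate mice, so a p-value reflects only how these libraries vary, which may be technical.

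Gasdermins are pore proteins held inactive until a protease frees their N-terminal part, which then perforates the plasma membrane in the process called pyroptosis. Caspase-1, activated by inflammasome sensors, and caspase-4, which binds bacterial lipopolysaccharide directly and is called caspase-11 in mice, both cut gasdermin D. In the necroptosis pathway RIPK1 recruits and activates RIPK3, RIPK3 phosphorylates MLKL, and MLKL breaches the membrane, while caspase-8 cuts the RIP kinases and holds this route in check. Skeletal muscle fibres are long-lived syncytia, and much of the inflammasome machinery is known from macrophages.

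The libraries held 32108684 to 42344238 counts. Hnrnpu itself, counted over all its exons, had 209, 210 and 205 CPM, the count relative to the TMM-scaled library size, in mKO replicates 1 to 3, and 233, 235 and 247 CPM in WT replicates 1 to 3. It was not called (log2 -0.20, SE 0.10, edgeR adjusted p = 0.147), and with library totals the mKO libraries were above the WT libraries (236 to 250 against 200 to 209 CPM). A whole-gene count does not check a deletion of some exons, so directions are those of the libraries as labelled. Of 16650 genes tested across the transcriptome, 37.0% passed the adjusted threshold of 0.05 (edgeR quasi-likelihood test, Benjamini-Hochberg), 18.2% higher and 18.9% lower in mKO muscle, and the groups did not overlap for 49.3%. Scaling by library totals instead of TMM put the median gene at a log2 fold change of 0.49 in place of 0.02, a shift of 0.47, so smaller changes depend on the scaling. A positive log2 fold change in the edgeR model means a higher level in mKO muscle. In bulk muscle, fewer cells of a type and less RNA per cell cannot be told apart.

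Gsdma, the gasdermin best known from skin and stomach epithelium, was nearly silent in WT muscle and present in every mKO library. It had 106, 138 and 119 counts in mKO replicates 1 to 3, and 2, 1 and 1 counts in WT replicates 1 to 3. In CPM these were 2.34, 3.10 and 3.21 in mKO libraries, and 0.0668, 0.0307 and 0.0280 in WT libraries. The groups were far apart, and each WT count lay below 3, the number that a count of 0 still allows. Mean levels were 2.88 ± 0.477 CPM in mKO muscle and 0.0418 ± 0.0217 CPM in WT muscle (SD, n = 3 each). Summed over each group and divided by scaled library sizes, the counts gave a ratio of 70.3, with an exact 95% binomial interval of 27.2 to 259 that covers counting error only, and the fitted log2 fold change was 6.03 (SE 0.43). Of all genes tested, 0.186% had a fitted rise at least as large. Of 10 listed keratinocyte genes, 4 (Krt5, Krt14, Krt1 and Flg) had no count in any library and 5 were tested. Of these, Krt10, a keratin of upper skin layers, rose (log2 1.02, SE 0.25, edgeR adjusted p = 0.00728), with 2.05 to 2.82 CPM in mKO libraries and 1.01 to 1.26 CPM in WT libraries. Trp63 fell (log2 -0.42, SE 0.15, edgeR adjusted p = 0.04), a call not made with library totals, and Krtdap, Dmkn and Sfn did not pass. The list summed to 10.5 to 13.7 CPM in mKO libraries and 12.4 to 15.8 CPM in WT libraries. Most of this sum was Trp63, with 7.45 to 7.71 CPM in mKO libraries and 9.29 to 11.7 CPM in WT libraries. The part of keratinocytes in the value of Gsdma was not tested.

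Gsdma lies on the plus strand of chromosome 11 (GRCm38, 98664351 to 98677708) beside its near copies Gsdma2 and Gsdma3, so the share of reads that could go astray was measured from the annotated transcripts. Coding bases of Gsdma were 90.9% identical to those of Gsdma2 and 89.8% to those of Gsdma3. Of 2677 windows of 50 bases in the Gsdma transcript, 8.26% also occurred in a transcript of another gene, all of them in these copies. The first 60 coding bases show how the copies can be told apart, with the positions where any of them differs in capitals and the sequences taken from GENCODE.
Gsdma: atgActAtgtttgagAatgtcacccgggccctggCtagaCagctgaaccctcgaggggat
Gsdma2: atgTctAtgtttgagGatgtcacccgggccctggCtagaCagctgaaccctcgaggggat
Gsdma3: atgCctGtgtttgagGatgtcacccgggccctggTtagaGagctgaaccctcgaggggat
In this stretch Gsdma2 differs from Gsdma at 2 positions and Gsdma3 at 5. Gsdma2 had 2 counts in all mKO libraries together and none in WT libraries, and Gsdma3 had no count anywhere. Reads of this family were thus assigned almost wholly to Gsdma, although the sources used here do not say how reads with several places were counted. On its other side lies Psmd3, a proteasome subunit gene, with 28.7 ± 2.22 CPM in mKO muscle and 30.6 ± 3.04 CPM in WT muscle (SD, n = 3 each; edgeR adjusted p = 0.575).

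Gsdmd, the gasdermin that caspase-1 and caspase-4 cut, differed much less. It had 4.32, 4.42 and 4.32 CPM in mKO replicates 1 to 3, and 3.21, 3.00 and 2.85 CPM in WT replicates 1 to 3. Every mKO library was above every WT library, and the 3 mKO values were nearly the same. The log2 fold change was 0.53 (SE 0.18). Gsdmd is on chromosome 15 (75862339 to 75867404, plus strand), shares no exon base with another gene in the tables and had no 50-base window in common with another gene's transcripts.

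**Figure D1:**
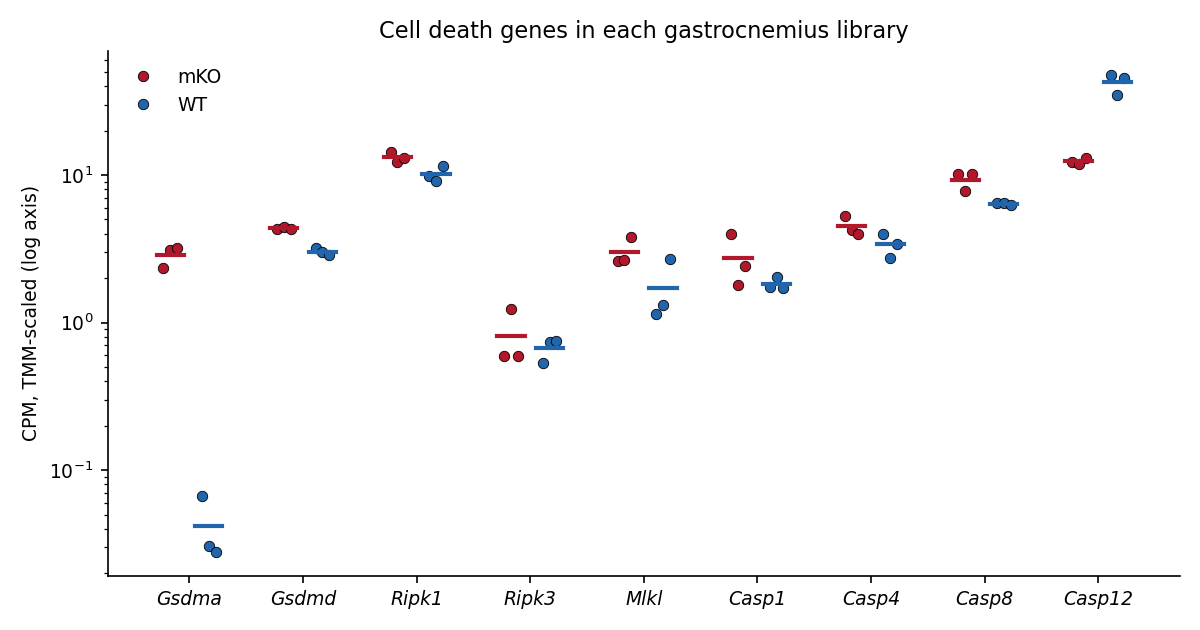
TMM-scaled CPM (log axis) of the 9 genes, with 1 point per library, mKO left (red) and WT right (blue), and bars at group means (n = 3 each). Gsdma has mKO points between 2.34 and 3.21 CPM and WT points below 0.1, Casp12 is the gene with all mKO points below all WT points, and Ripk3, Mlkl, Casp1 and Casp4 overlap between groups.

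Casp1, Casp4 and Casp12 stand in a row on the plus strand of chromosome 9. Casp12 was lower in mKO libraries without overlap, while Casp1 and Casp4 overlapped between the groups. Casp1 spans 5298517 to 5307265, Casp4, which starts 1563 bases beyond it, 5308828 to 5336783, and Casp12, a further 8647 bases on, 5345430 to 5373032. Their RefSeq promoters (GRCm38.p6, plus strand, 250 bases before to 50 after the start) are shown because only the values of Casp12 separated the groups in this cluster. Capitals mark matches to the motifs described next.
Casp1 promoter (chr9:5298267-5298566): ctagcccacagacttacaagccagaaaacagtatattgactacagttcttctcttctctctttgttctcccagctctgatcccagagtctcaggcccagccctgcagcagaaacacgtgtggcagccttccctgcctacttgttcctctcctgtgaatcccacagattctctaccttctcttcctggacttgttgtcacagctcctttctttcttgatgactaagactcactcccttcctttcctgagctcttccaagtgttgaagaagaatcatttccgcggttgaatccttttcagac
Casp4 promoter (chr9:5308599-5308898): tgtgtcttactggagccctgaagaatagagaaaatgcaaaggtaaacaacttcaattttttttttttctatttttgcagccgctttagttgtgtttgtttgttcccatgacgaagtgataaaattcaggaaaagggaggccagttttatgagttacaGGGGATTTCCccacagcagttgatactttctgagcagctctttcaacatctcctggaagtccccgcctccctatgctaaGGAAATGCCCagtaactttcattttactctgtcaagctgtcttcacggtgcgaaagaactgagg
Casp12 promoter (chr9:5345226-5345525): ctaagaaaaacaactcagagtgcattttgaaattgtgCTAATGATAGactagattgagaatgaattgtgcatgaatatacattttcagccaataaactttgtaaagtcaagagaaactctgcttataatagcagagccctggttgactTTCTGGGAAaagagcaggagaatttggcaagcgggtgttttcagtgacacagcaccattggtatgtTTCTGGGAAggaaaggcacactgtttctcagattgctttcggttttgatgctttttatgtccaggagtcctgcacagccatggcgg
Motifs were searched on both strands of the promoters of 7 members that had an entry (9 windows) and of 32851 windows of the same length in all. Casp4 held 2 matches to the kappa B element (GGG, any 2 bases, TTTCC), 1 in each orientation and none overlapping, a sequence found in 1.63% of all windows. Casp12 held 2 matches to the gamma-activated sequence TTCNNNGAA (8.30% of all windows). It held 1 match to a loose form of the MEF2 element, CTA and TAG with any 4 bases between (3.69%), here CTAATGATAG. Ripk1 held the interferon-stimulated response element, GAAA, any 2 bases and GAAA (3.44% of all windows), 5 bases before the start in 1 of its windows, overlapping 1 of its 2 gamma-activated matches, and CAGCTG, an E-box (16.3%), in the other. None of the members' windows held the AP-1 element TGANTCA or the amino acid response element TGATGNAA, which occurred in 7.81% and 3.97% of all windows. A match is a description of these letters and not evidence of binding.

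Casp12, a caspase linked to the endoplasmic reticulum in mice, was the most abundant member per length in WT muscle and was lower in mKO muscle. It had 12.2, 11.8 and 13.1 CPM in mKO replicates 1 to 3, and 47.9, 34.7 and 45.4 CPM in WT replicates 1 to 3. The groups were far apart, and the mKO libraries varied less than the WT libraries. Means were 12.4 ± 0.681 CPM in mKO muscle and 42.7 ± 7.04 CPM in WT muscle (SD, n = 3 each), a log2 fold change of -1.79 (SE 0.14), or 3.45-fold lower. With library totals the log2 fold change was -1.32. A fitted fall at least as large was seen in 1.52% of all genes tested. With TMM scaling the summed level of 8 marker genes of mature muscle fibres was also lower, with 167400 to 201000 CPM in mKO libraries and 275100 to 290100 CPM in WT libraries. Most of this sum was Ttn, with 126400 to 159400 CPM in mKO libraries and 172100 to 173300 CPM in WT libraries. Ttn was not called (log2 -0.26, SE 0.13, edgeR adjusted p = 0.126). Of the 8 genes 7 were called lower, and 6 with library totals. The sum itself was not taken with library totals, and its part in the value of Casp12 was not tested.

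Casp1, which processes interleukin-1 beta and gasdermin D, had 3.97, 1.80 and 2.43 CPM in mKO replicates 1 to 3, and 1.74, 2.02 and 1.71 CPM in WT replicates 1 to 3. The groups overlapped, with mKO replicate 1 far above the other mKO libraries and mKO replicate 2 inside the WT range. The log2 fold change was 0.59 (SE 0.29), and it was 0.21 without mKO replicate 1. Casp4 had 5.27, 4.24 and 3.97 CPM in mKO replicates 1 to 3, and 4.01, 2.76 and 3.41 CPM in WT replicates 1 to 3. Here too the highest value was that of mKO replicate 1, and WT replicate 1 lay just above mKO replicate 3. Its log2 fold change was 0.41 (SE 0.21). Substrains of 129 mice are known to carry an inactive Casp4 allele, and the sources used here do not say which allele each of these mice carried.

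Within each library the make-up of the cluster differed between the groups. Of the counts per length of Casp1, Casp4 and Casp12 together, Casp12 held 43.9, 56.7 and 55.9% in mKO replicates 1 to 3, and 84.8, 81.2 and 85.2% in WT replicates 1 to 3. The share of Casp1 was 28.4 ± 7.37% in mKO muscle and 9.41 ± 2.38% in WT muscle, and that of Casp4 was 19.4 ± 1.82% in mKO muscle and 6.88 ± 0.395% in WT muscle (SD, n = 3 each). None of the 3 shares overlapped between groups. Such shares do not depend on how libraries are scaled, and since they sum to 100% a lower Casp12 count raises the shares of the others. The nearest protein-coding genes outside the cluster are distant: Gria4, a glutamate receptor gene, ends 502283 bases below Casp1, with 0.629 ± 0.338 CPM in mKO muscle and 0.317 ± 0.162 CPM in WT muscle (edgeR adjusted p = 0.183). Pdgfd, a growth factor gene 795552 bases above Casp12, fell to 7.14 CPM in mKO muscle, against 9.81 CPM in WT muscle (log2 -0.46, SE 0.16, edgeR adjusted p = 0.0372), a difference no larger than the 0.47 shift between scalings.

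**Figure D2:**
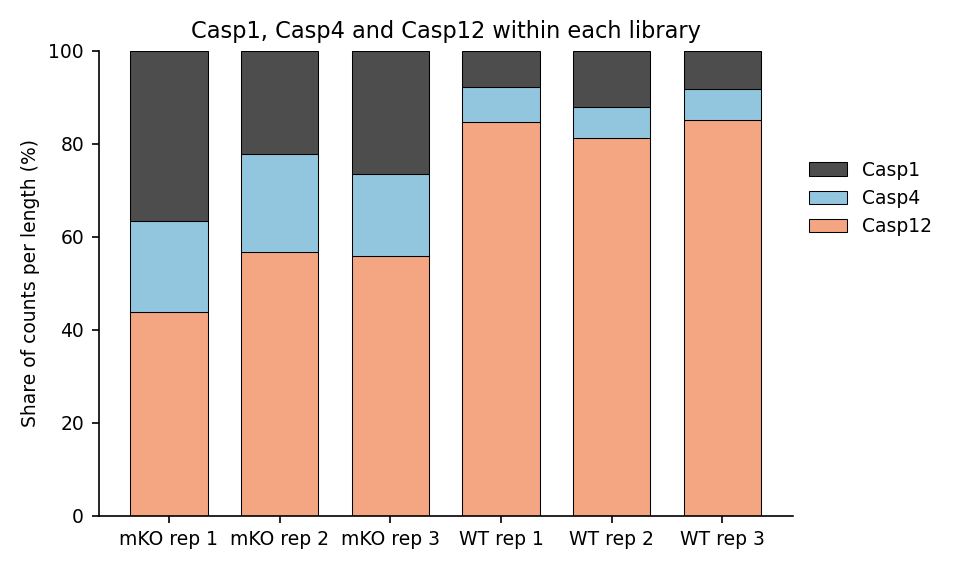
Share (%) of Casp1, Casp4 and Casp12 in their summed counts per length, 1 bar per library, mKO replicates left and WT replicates right. Casp12 fills 43.9 to 56.7% of the bar in mKO libraries and 81.2 to 85.2% in WT libraries.

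Casp8, the initiator caspase of death receptors (chromosome 1, 58795374 to 58847503, plus strand), was higher in all mKO libraries. It had 10.1, 7.75 and 10.1 CPM in mKO replicates 1 to 3, and 6.48, 6.50 and 6.24 CPM in WT replicates 1 to 3. The WT values were nearly equal, the lowest mKO value was that of replicate 2, and the groups did not overlap. The log2 fold change was 0.54 (SE 0.16). Of its 50-base transcript windows 4.37% were shared with Gm20257, a gene that had 105 counts in mKO libraries together and 69 in WT libraries together. Cflar, whose product cFLIP is an inactive relative of caspase-8 and blocks it, is the nearest protein-coding gene below Casp8 on chromosome 1, 36490 bases away. It fell to 52.7 ± 4.11 CPM in mKO muscle, against 83.0 ± 5.43 CPM in WT muscle (SD, n = 3 each; log2 -0.66, SE 0.11, edgeR adjusted p = 0.000566), a call lost with library totals (log2 -0.19, adjusted p = 0.167). On the other side of Casp8, Trak2, a mitochondrial transport adaptor gene, also fell, to 76.7 CPM in mKO muscle against 105 CPM in WT muscle (log2 -0.46, SE 0.10, edgeR adjusted p = 0.00428), also no more than the 0.47 shift between scalings.

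Of the necroptosis kinases, Ripk1 was higher in mKO libraries by a small margin and Ripk3 was barely expressed in either group. Ripk1 lies on chromosome 13 (34002363 to 34035170, plus strand), Ripk3 on chromosome 14 (55784996 to 55788857, minus strand) and Mlkl on chromosome 8 (111311797 to 111338177, minus strand). Ripk1 had 14.2, 12.2 and 13.0 CPM in mKO replicates 1 to 3, and 9.82, 9.11 and 11.5 CPM in WT replicates 1 to 3, without overlap, a log2 fold change of 0.37 (SE 0.14). This count is uncertain, because 38.3% of the Ripk1 exon bases in the tables are also exon bases of another gene: 2108 bases of the pseudogene Gm17084 on the same strand, which had 27 counts in mKO libraries together and 22 in WT libraries together, and 241 bases of Serpinb6a on the opposite strand. Serpinb6a, a protease inhibitor gene, is abundant, with 440 CPM in mKO muscle and 522 CPM in WT muscle (edgeR adjusted p = 0.168), and the sources used here state no strand for the counting. Bphl, which lies 2471 bases above Ripk1 and encodes a serine hydrolase, fell to 5.66 CPM in mKO muscle, against 17.2 CPM in WT muscle (log2 -1.60, SE 0.15, edgeR adjusted p = 6.44e-06).

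Ripk3, the kinase that activates MLKL, had 27, 55 and 22 counts in mKO replicates 1 to 3, and 16, 24 and 27 counts in WT replicates 1 to 3. These are 0.595, 1.24 and 0.594 CPM in mKO libraries, and 0.534, 0.736 and 0.755 CPM in WT libraries. The groups overlapped, and the mean of mKO muscle was above that of WT muscle through replicate 2. The log2 fold change was 0.26 (SE 0.41), and it turned to -0.18 without mKO replicate 2. Mlkl, the executioner of necroptosis, had 2.60, 2.65 and 3.81 CPM in mKO replicates 1 to 3, and 1.14, 1.32 and 2.71 CPM in WT replicates 1 to 3. A single WT library, replicate 3, stood apart from the other WT libraries and reached into the mKO range. The log2 fold change of Mlkl was 0.79 (SE 0.32), and over leaving out each library in turn it ran from 0.57 to 1.29, the highest being that without WT replicate 3.

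Set per kilobase of exon, the first 5 members stood in the same order in both groups, with Casp12 first, and Mlkl, Casp4, Gsdma and Ripk3 changed places. In mKO muscle Casp12 (3.22 ± 0.177 CPM per kilobase) and Casp8 (3.22 ± 0.471) were level at the top, followed by Gsdmd (2.45 ± 0.0335) and Ripk1 (2.15 ± 0.164). In WT muscle Casp12 stood by itself at 11.1 ± 1.83 CPM per kilobase, ahead of Casp8 (2.21 ± 0.0506), Gsdmd (1.70 ± 0.0999) and Ripk1 (1.65 ± 0.203; SD, n = 3 for each value). The neighbours Gsdmd and Ripk1 differed by less than their spread in WT muscle but not in mKO muscle. Below them in mKO muscle came Casp1, Mlkl, Casp4, Gsdma and Ripk3. Among the first 4 of these, each differed from the next by less than their spread. Every mKO value of Casp1 was nevertheless above every mKO value of Gsdma. Casp1 and Ripk1 also overlapped in mKO muscle, so neither can be placed above the other there. In WT muscle the lower order was Casp1, Casp4, Mlkl, Ripk3 and Gsdma, of which only Casp4 and Mlkl did not differ beyond their spread. Lowest were Ripk3 in mKO muscle (0.411 ± 0.188 CPM per kilobase) and Gsdma in WT muscle (0.0153 ± 0.00796).

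Counted over the members, 8 of 9 had a positive fitted log2 fold change, and Casp12 was the exception. The groups did not overlap for 5 members (4 higher and 1 lower: Gsdma, Gsdmd, Ripk1, Casp8 and Casp12), beside 49.3% of all genes tested (25.3% without overlap and higher), and 4 members (all of these but Ripk1, 3 higher and 1 lower) passed the adjusted threshold of 0.05, beside 37.0% of all genes tested (18.2% higher, 18.9% lower). All 9 passed the filter on low counts, Gsdma through its mKO libraries. With library totals 8 members were called (7 higher and 1 lower, all but Ripk3). Gsdma and Casp12 were called under every alternative. The call of Gsdmd was lost when any 1 library was left out, and that of Casp8 without mKO replicate 1, mKO replicate 3 or WT replicate 3. Ripk1 and Mlkl were called without WT replicate 3 and with upper-quartile scaling, and Casp1 without mKO replicate 2. Ripk1 was also called with voom, the filter at 1 CPM in 3 libraries and robust dispersion. Mlkl was also called with DESeq2, no low-count filter and the replicate block. The members' median log2 fold change was 0.53, against 0.02 over all genes tested. Since the members were picked with this contrast known, these counts and calls, under the alternatives too, describe them and support nothing.

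Macrophage genes were higher in mKO muscle. All 10 listed macrophage markers rose (edgeR adjusted p from 6.74e-07 to 0.0255), and their sum was 989, 591 and 727 CPM in mKO replicates 1 to 3, and 342, 301 and 283 CPM in WT replicates 1 to 3. By level Lyz2, Mrc1 and C1qa led the list, with no marker at 0. The library with the largest sum, mKO replicate 1, was also the highest for Casp1, Casp4, Ripk1 (14.2 CPM) and, barely, Casp8 (10.1 CPM). Gsdma and Mlkl had their lowest mKO value there, and Gsdmd was nearly equal in the 3 mKO libraries. In the other mKO libraries Casp4 did not follow the sum, with 4.24 CPM in replicate 2 and 3.97 CPM in replicate 3. Per 1000 CPM of macrophage marker sum, Casp1 had 3.46 ± 0.498 CPM in mKO muscle and 5.94 ± 0.826 CPM in WT muscle, and Gsdmd had 5.93 ± 1.56 CPM in mKO muscle and 9.81 ± 0.382 CPM in WT muscle (SD, n = 3 each). Measured that way every mKO library was below every WT library for Casp1, Casp4, Casp8, Gsdmd, Ripk1 and Casp12, while Ripk3 and Mlkl overlapped. Gsdma was still higher, with 4.01 ± 1.48 CPM in mKO muscle and 0.132 ± 0.0548 CPM in WT muscle. Any gene that rises less than the marker sum is lower by this measure. Lyz2 alone made up 499 CPM of the sum in mKO replicate 1. Whether macrophage RNA contributes to the members was not tested.

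Among the other cell types, the fibro-adipogenic, satellite cell, neutrophil, and T and NK cell sums were also higher in every mKO library. The fibro-adipogenic, satellite cell and neutrophil sums each leaned on 1 gene: Col3a1, Vcam1 and Csf3r. Single genes were mixed: 2 of 6 fibro-adipogenic genes rose, and of 4 satellite cell genes 2 rose and 1 fell. Of the tested genes, 1 of 3 neutrophil genes and 1 of 2 T and NK cell genes rose. The part of these cells in the members' values was not tested. Neutrophil markers summed to 2.00 to 3.46 CPM in mKO libraries and 1.01 to 1.97 CPM in WT libraries, with Ly6g at 0 throughout. T and NK cell markers summed to 1.53 to 2.20 CPM in mKO libraries and 0.755 to 1.40 CPM in WT libraries, and B cell markers to 0.108 to 0.573 CPM in mKO libraries and 0.200 to 1.26 CPM in WT libraries. These 3 immune sums were far below the macrophage sum. Of 7 endothelial markers 6 fell (2 with library totals), with sums of 160 to 173 CPM in mKO libraries and 243 to 319 CPM in WT libraries. Satellite cell markers summed to 14.5 to 16.2 CPM in mKO libraries and 8.35 to 12.9 CPM in WT libraries, and fibro-adipogenic markers to 2102 to 2375 CPM in mKO libraries and 1668 to 1829 CPM in WT libraries. Erythroid markers summed to 3.19 to 6.41 CPM in mKO libraries and 13.9 to 17.9 CPM in WT libraries. Sums of the mast cell, Schwann cell and adipocyte lists overlapped between the groups.

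**Figure D3:**
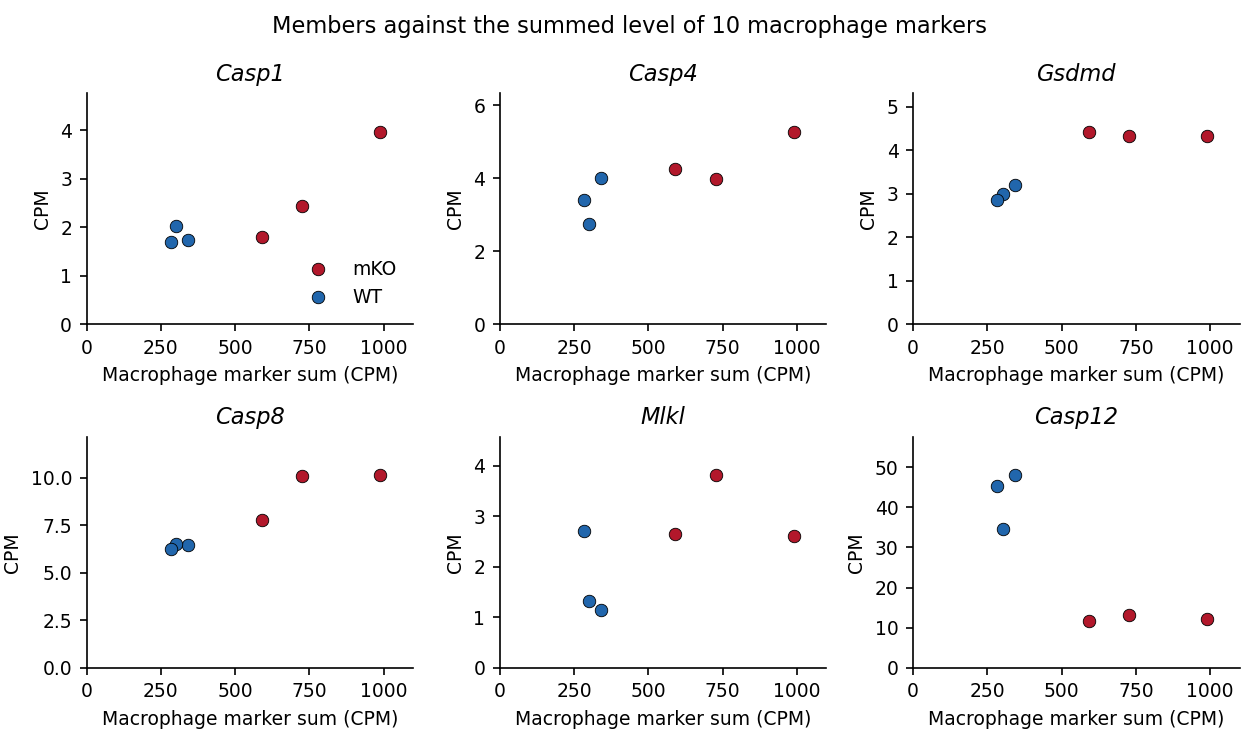
CPM of 6 members (vertical) against the summed CPM of 10 macrophage markers (horizontal), 1 point per library, mKO red and WT blue. All mKO libraries lie right of the WT libraries (591 to 989 against 283 to 342 CPM). Casp1, Casp4 and, barely, Casp8 are highest at the largest sum, and Casp12 is low at every mKO point.

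The rest of the death machinery was read from 9 lists of 124 other genes, of which 109 passed the low-count filter. Of these, 31 rose and 18 fell in mKO muscle, 45.0% called in all beside 37.0% of all genes tested. Their median log2 fold change was 0.21, against 0.02 over all genes tested. The split rests on scaling, since 76 rose and 3 fell with library totals. Leaving out each library in turn, 27 to 32 rose and 9 to 16 fell. The fewest falls were without mKO replicate 3 (27 rose and 9 fell), where calls over all genes dropped too, from 6166 to 4766. The macrophage marker sum was higher in every mKO library, and its part in these lists was not tested. Adjusted p-values for the genes of these lists are from the edgeR quasi-likelihood test over all 16650 genes. The counts of each list below stand beside 18.2% of all genes tested that rose and 18.9% that fell. With library totals, 8159 of the 16650 genes rose and 1124 fell.

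Inflammasome genes had the highest median of the lists with more than 1 tested gene: of 12 tested genes 8 rose and 2 fell, with a median log2 fold change of 1.15 (10 rose and 1 fell with library totals). Nlrp1b, a sensor of pathogen proteases, had 1.81, 2.11 and 2.54 CPM in mKO replicates 1 to 3, and 0.301, 0.307 and 0.364 CPM in WT replicates 1 to 3 (log2 2.71, SE 0.32, adjusted p = 4.11e-05). Mefv, which encodes the sensor pyrin, had 1.10, 1.24 and 1.49 CPM in mKO replicates 1 to 3, and 0.200, 0.153 and 0.112 CPM in WT replicates 1 to 3 (log2 3.02, SE 0.42, adjusted p = 0.000143). These are low levels with wide gaps between the groups. Naip5, a receptor for bacterial flagellin, rose as well (log2 1.48, adjusted p = 0.000209), although the Naip genes are near copies and their counts are uncertain. The 2 that fell were abundant. Nek7, a kinase that NLRP3 needs, had 159, 165 and 167 CPM in mKO replicates 1 to 3, and 319, 283 and 360 CPM in WT replicates 1 to 3 (log2 -0.97, adjusted p = 4.65e-05). The other was Dpp8, a peptidase gene (log2 -0.61, adjusted p = 0.00288). With library totals only 1 of these 2 falls was called. Chosen after their values were seen, as Dpp8 was, the adaptor gene Pycard rose (log2 1.01, adjusted p = 0.00785) and Nlrp3 did not pass (log2 1.14, SE 0.53, adjusted p = 0.113).

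**Figure D4:**
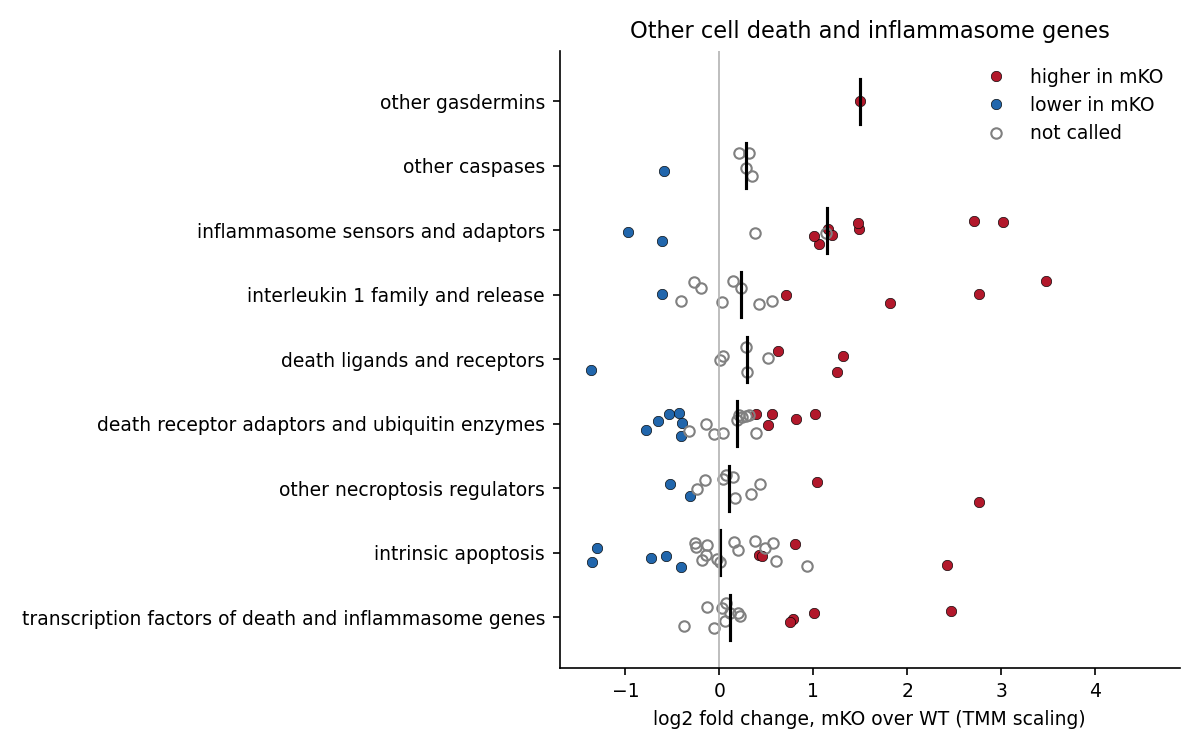
Fitted log2 fold change, mKO over WT with TMM scaling, of 109 tested genes in 9 lists, 1 point per gene, filled where the edgeR adjusted p is under 0.05 (red higher, blue lower in mKO) and open otherwise, with a bar at each list's median. The inflammasome list has its median at 1.15, while intrinsic apoptosis has its median at 0.01; with library totals the medians of these lists were 1.61 and 0.47.

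Among genes of the interleukin-1 family and its release, 4 of 13 rose and 1 fell (8 and none with library totals; 2 rose without mKO replicate 3 or WT replicate 3). Il1rn, the receptor antagonist, rose most (log2 3.47, SE 0.43, adjusted p = 5.8e-05), with 2.07, 1.28 and 1.86 CPM in mKO replicates 1 to 3, and 0.167, 0.215 and 0.0839 CPM in WT replicates 1 to 3. Il1b, the cytokine that caspase-1 matures, had 1.45, 0.674 and 1.13 CPM in mKO replicates 1 to 3, and 0.501, 0.0307 and 0.392 CPM in WT replicates 1 to 3. Its rise (log2 1.82, SE 0.59, adjusted p = 0.0297) was lost without mKO replicate 1 (adjusted p = 0.115), mKO replicate 3 (0.0669) or WT replicate 3 (0.0597). The interleukin-18 receptor subunit gene Il18rap rose (log2 2.76, adjusted p = 0.00298). Hmgb1, a nuclear protein released by dying cells, fell (log2 -0.61, adjusted p = 0.0134), a call lost with library totals (0.502) and without mKO replicate 2 (0.0509), mKO replicate 3 (0.0548) or WT replicate 1 (0.0593). Ninj1, which drives the final membrane rupture, was chosen after its value was seen and did not pass (log2 0.42, SE 0.16, adjusted p = 0.0604).

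Among the other gasdermins and caspases, 1 gene rose. Of 8 other gasdermin genes, 1 passed the filter, and it rose: Gsdme, a gasdermin cut by caspase-3, had 0.859, 1.06 and 1.03 CPM in mKO replicates 1 to 3, and 0.267, 0.460 and 0.308 CPM in WT replicates 1 to 3 (log2 1.49, SE 0.39, adjusted p = 0.00962). Gsdma3, Gsdmc and Gsdmc2 were at 0 in all libraries. Of 6 other caspases 5 were tested, and none rose (4 with library totals). Casp14, a skin caspase, had no count.

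Of 9 tested genes of death ligands and receptors, 3 rose, 1 fell and 5 were not called (8 rose and 1 fell with library totals). Of all genes tested, 18.2% rose and 18.9% fell. Tnfrsf1b, the second receptor of tumour necrosis factor, had 12.2, 9.54 and 11.1 CPM in mKO replicates 1 to 3, and 3.57, 5.21 and 4.39 CPM in WT replicates 1 to 3 (log2 1.32, SE 0.18, adjusted p = 0.000103). Tlr4, the lipopolysaccharide receptor, rose too (log2 1.26, adjusted p = 8.06e-05), and Tnfrsf1a, the death-domain receptor upstream of RIPK1, rose less (log2 0.62, adjusted p = 0.0253). The rise of Tnfrsf1a was lost without mKO replicate 2 (adjusted p = 0.0567), mKO replicate 3 (0.072) or WT replicate 2 (0.0636). Tnfsf10, the ligand TRAIL, fell, with 4.16, 4.18 and 2.35 CPM in mKO replicates 1 to 3, and 11.7, 8.71 and 7.36 CPM in WT replicates 1 to 3 (log2 -1.37, SE 0.24, adjusted p = 0.000701).

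Adaptors and ubiquitin enzymes around RIPK1 and caspase-8 were split, with 5 of 21 higher and 6 lower (13 and none with library totals; 4 and 3 without mKO replicate 3, and 6 and 3 without WT replicate 3). Otulin, a deubiquitinase that trims linear ubiquitin chains and limits this signalling, had 28.5, 29.8 and 28.5 CPM in mKO replicates 1 to 3, and 15.9, 16.8 and 16.8 CPM in WT replicates 1 to 3 (log2 0.81, SE 0.11, adjusted p = 9.32e-05). The replicates of Otulin were tight and the groups well apart. Beside Cflar, the kinase gene Mapkapk2, whose product phosphorylates RIPK1, fell (log2 -0.78, adjusted p = 0.000901), as did Birc2, which encodes the ubiquitin ligase cIAP1 (log2 -0.54, adjusted p = 0.00246). Neither of these falls was called with library totals (adjusted p = 0.073 and 0.61).

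Among 12 other necroptosis regulators 2 rose and 2 fell (9 and none with library totals). Zbp1, a nucleic acid sensor that binds RIPK3, had 3.17, 3.05 and 2.54 CPM in mKO replicates 1 to 3, and 0.401, 0.583 and 0.308 CPM in WT replicates 1 to 3 (log2 2.76, SE 0.30, adjusted p = 2.25e-05). Adar, the RNA-editing enzyme that keeps ZBP1 inactive, rose too (log2 1.04, SE 0.19, adjusted p = 0.000905). Stub1, a ubiquitin ligase, and Pgam5, a mitochondrial phosphatase, fell (log2 -0.52 and -0.32, adjusted p = 0.00192 and 0.0373). With library totals Stub1 was not called (adjusted p = 0.678) and Pgam5 turned to 0.15. Leaving out any 1 library but WT replicate 2 also ended the call of Pgam5 (adjusted p from 0.0509 to 0.163).

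Genes of the mitochondrial route to apoptosis were balanced, with 4 of 23 higher, 5 lower and a median log2 fold change of 0.01 (12 and 1, and 0.47, with library totals). Pmaip1, which encodes the BH3-only protein NOXA, rose at low levels (log2 2.43, SE 0.53, adjusted p = 0.00333), and Bcl2l11, which encodes BIM, rose (log2 0.81, SE 0.16, adjusted p = 0.00155). Bcl2, a survival gene, fell to 5.38 CPM in mKO muscle, against 13.3 CPM in WT muscle (log2 -1.30, SE 0.23, adjusted p = 0.000796). Cycs, which encodes cytochrome c of the respiratory chain and the apoptosome, fell to 393 CPM in mKO muscle, against 652 CPM in WT muscle (log2 -0.73, SE 0.13, adjusted p = 0.000865; 0.0967 with library totals). In this list 2 rose without mKO replicate 1, 2 fell without mKO replicate 2 or 3, and 3 fell without WT replicate 2.

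Of 13 transcription factors known to act on these genes 4 rose and none fell (11 and none with library totals). Irf7, an interferon-inducible factor, had 9.43, 7.01 and 3.97 CPM in mKO replicates 1 to 3, and 1.77, 0.828 and 1.12 CPM in WT replicates 1 to 3 (log2 2.47, SE 0.34, adjusted p = 0.000118). Every mKO library was above every WT library, with a wide spread among the mKO libraries. Stat2 (log2 1.00), Nfkb2 (0.75) and Irf9 (0.78) followed, with adjusted p from 0.000731 to 0.00325. Irf2 and Irf1, factors known to drive Gsdmd and Casp1, were chosen after their values were seen and did not pass (log2 0.11 and -0.05, adjusted p = 0.572 and 0.815).

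The genes most like the members with the largest differences were found by the root mean square distance between log2 CPM profiles, centred on each gene's mean over the 6 libraries, among 11894 tested genes of at least 1 CPM with a settled symbol. Nearest to Gsdma were Myh3, the embryonic myosin heavy chain (distance 0.41), Asns, asparagine synthetase (0.49), and Mthfd2, a mitochondrial folate enzyme (0.58). Nearest to Casp12 were Aurka, a mitotic kinase gene with 2.06 CPM in mKO muscle and 7.38 CPM in WT muscle (distance 0.06), Smtnl2 (0.08) and Pkdcc (0.10). Nearest to Mlkl were Nab2 (0.17), Bend4 (0.19) and Otud1 (0.20). Most of such a distance is set by the group difference and by a few libraries, so it describes shape only.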

How the data were processed

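RNA of mouse gastrocnemius was sequenced in 6 libraries after Trizol extraction with an NEBNext Ultra library kit, per the labels' protocols. The deposited values are raw counts per Ensembl gene. The tools listed in the submitters' processing notes are featureCounts (Subread 1.5.2), Trimmomatic 0.36 and STAR 2.5.2b, with build GRCm38. The deposited length column, in bases and taken as an other value, gave levels per kilobase. The sources used here do not give the strand setting or the treatment of reads with several places.

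Groups came from sample titles. The main test was edgeR 4.0.16 (R 4.3.3) quasi-likelihood with TMM factors, the default expression filter (16650 genes), group as the only term and Benjamini-Hochberg adjustment at 0.05. The biological coefficient of variation was 16.1%. Totals were 32108684 to 42344238 counts, and replicates differed beyond sampling noise (chi-square per degree of freedom 20.9 to 57.7). The main test was also run on simulated data with 200 changed genes. It recovered 71% of 2-fold and 26% of 1.5-fold changes, with 5 false calls among 102, so smaller changes were often missed there. Alternatives were DESeq2 1.42.0, voom of limma 3.58.1, other scaling, filters, dispersion and threshold, the replicate number as a block, and leaving out each library.

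The members and all gene lists were chosen with earlier results of these data known. Named genes were the 9 members, up to 4 called genes per pathway list by lowest p, up to 3 per cell type list by level, chromosomal neighbours and overlapping genes, and the 3 nearest profiles of 3 members. For cell types mostly sums are given, and 1 gene that the rule names is not reported here. All 216 listed symbols were matched, with GENCODE annotation of the same build. Promoters are from RefSeq. Positions are in GRCm38, counted from 1.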

Additional observations from a re-analysis of the deposited data

How the results depend on the processing

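Over 16 alternatives, 8 of 9 members kept the sign of their log2 fold change, and Ripk3 turned to -0.18 without mKO replicate 2 (-0.18 to 0.44 over leaving out each library). Gsdmd also lost its call with no low-count filter, with the replicate block and at a threshold of 0.01, as Casp8 did at 0.01. The other change of sign was that of Pgam5 with library totals (0.15). With library totals 9283 genes were called, 76 other pathway genes rose and 3 fell, and their median log2 fold change was 0.67. At a threshold of 0.01, 3973 genes were called, and 24 other pathway genes rose and 9 fell. Leaving out each library gave 4766 to 6255 called genes, 27 to 32 pathway genes higher and 9 to 16 lower, a pathway median of 0.15 to 0.28, and 7 to 8 members with a positive fold change. Of 30 named pathway genes, 20 kept call and direction under every alternative. No shared effect of the replicate numbers was seen, as deviations from group means correlated at -0.00202 to 0.0224 between libraries of the same number. With so few libraries this cannot show whether same-numbered libraries were paired. With the replicate block 5519 genes were called, 28 pathway genes higher and 14 lower. Arms of 2 libraries share their spread with the other group. Ripk3, Gsdme, Il1b and Mefv rest on few counts, so small differences in them were not detectable at this depth.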
